A study of Saccharomyces cerevisiae with 6 samples.

Results

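The genes described here are 10 genes of branched-chain amino acid metabolism in the budding yeast Saccharomyces cerevisiae, chosen by their systematic names from a table of 7127 annotated features. They cover the synthesis of isoleucine, valine and leucine as far as the isopropylmalate isomerase, and the aminotransferases that end the pathways and open the breakdown of these amino acids. RNA was sequenced from 3 snf2Δ samples and 3 wild-type samples, all labelled as strain HHY221 and grown in the rich medium YPD at 30 °C to log phase, without rapamycin. Snf2 is the ATPase subunit of the nucleosome remodeller Swi-Snf. Per the study's strain list, HHY221 is a MATa W303 derivative built for anchor-away experiments, and both genotypes therefore carry TOR1-1, a LEU2 marker in place of FPR1 and an RPL13A-2×FKBP12 fusion. The snf2Δ strain carries natMX6 at SNF2. Each genotype was represented by a single strain, and the labels do not say that the numbered samples were separate cultures, so the p-values reflect the scatter of these libraries, which may be technical.

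Isoleucine and valine are made in parallel by the same mitochondrial enzymes. Acetolactate synthase (Ilv2 with its regulatory subunit Ilv6), the reductoisomerase Ilv5 and the dehydratase Ilv3 act on both routes, and the threonine deaminase Ilv1 supplies the isoleucine route. Leucine branches off from the keto acid of valine through the isopropylmalate synthases Leu4 and Leu9, the isomerase Leu1 and the dehydrogenase Leu2. The activator Leu3 responds to isopropylmalate, the product of Leu4 and Leu9, and Gcn4 is the general activator of amino acid synthesis genes. Bat1 in mitochondria and Bat2 in the cytosol add or remove the amino group. Bat1 is mainly linked to synthesis and Bat2 to breakdown of the amino acids.

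The libraries held 4134546 to 6708036 counts in total. SNF2 had 6 to 9 counts in snf2Δ libraries, against 298 to 365 in wild-type libraries, and FPR1 had 0 counts in all 6 libraries. All 4 a-cell markers were expressed. STE2 and BAR1 did not pass the test between genotypes, and MFA1 and MFA2 fell by 0.99 and 0.76 on the log2 scale in snf2Δ. Of the 3 α-cell markers the most abundant, STE3, averaged 2.56 ± 0.165 CPM in snf2Δ and 1.95 ± 1.14 CPM in wild type (SD, n = 3 each). CPM are counts-per-million values after TMM scaling. The limit set by a count of 0 was 0.481 to 0.746 CPM across libraries, from counting error only. Wild-type replicate 3 lay apart from the other libraries on the second principal component, which held 9.98% of the variance. The median of the 10 genes lay 0.28 log2 units higher in wild-type replicate 3 than in the other wild-type libraries, and 0.35 log2 units higher in snf2Δ replicate 3 than in the other snf2Δ libraries. These were bulk samples, so a change in the RNA of each cell and a change in the mix of cells cannot be told apart.

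The comparison of the genotypes asked how transcript levels change in rich medium when Swi-Snf lacks its ATPase. In snf2Δ cells the genes of the shared isoleucine-valine route rose together, the leucine branch was split, and the cytosolic aminotransferase gene fell. Of the 10 genes, all of which entered the test, 6 rose (ILV1, ILV2, ILV3, ILV5, ILV6 and LEU4), 2 fell (LEU9 and BAT2) and 2 did not pass (LEU1 and BAT1), at an adjusted p under 0.05 in edgeR's quasi-likelihood test over all 5641 features. Over all features tested, 16.6% rose (939) and 17.8% fell (1003), and with upper quartile scaling 1204 rose and 808 fell. The median log2 fold change of the 10 genes was 0.70, beside −0.022 over all features tested. Levels of 8 of the 10 genes did not overlap between the genotypes, as was the case for 46.6% of all features tested. A fall of more than 2 on the log2 scale, the size the study's methods required, was met by BAT2 among the 10 genes and by 1.76% of all features tested. The 10 genes together summed to 8010.1 ± 1021 CPM in snf2Δ and 4998 ± 550.1 CPM in wild type (SD, n = 3 each), a ratio of 1.60.

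**Figure D1:**
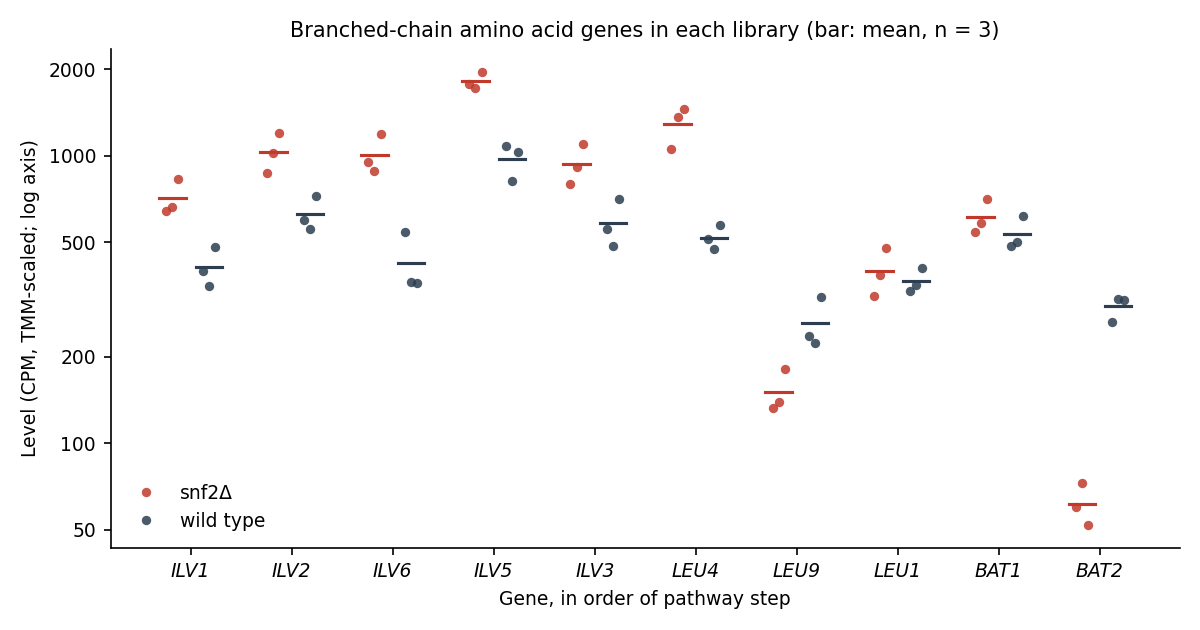
Level of each of the 10 genes in CPM (vertical log axis) in the 3 snf2Δ libraries (red, left of each pair) and the 3 wild-type libraries (dark, right), with genes in order of pathway step. Points are libraries and bars are means, and the groups overlap for LEU1 and BAT1 only.

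The upstream regions of the 10 genes were searched for a fixed set of letters for each of Leu3 and Gcn4. These are the activators known for the pathway. Variants of the letters were not searched, so the lack of a match does not mean the lack of a site. The search covered 500 bases before each start codon in the R64 reference genome, on both strands, and a match is a description of sequence only. The Leu3 letters CCGGNNCCGG were found upstream of 4 of the 10 genes (ILV2, ILV5, LEU1 and BAT1) and in 0.267% of 6000 windows of all protein-coding genes. The Gcn4 letters TGACTC were found upstream of 8 of the 10 genes (all but ILV2 and BAT2) and in 12.7% of windows. No Leu3 match overlapped a Gcn4 match, although the stretch of BAT1 holds the Gcn4 letters near its left end. The 4 stretches with the Leu3 letters are shown because 2 of the genes rose and 2 did not pass the test. Each is given on the coding strand of its gene, from RefSeq (R64, reference strain S288C and not W303), with the match in capitals.
ILV2, chrXIII:483591-483650, plus strand, match 468 to 459 bases before the start codon: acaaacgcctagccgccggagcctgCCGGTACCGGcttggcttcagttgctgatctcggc
ILV5, chrXII:839596-839655, minus strand, match 377 to 368 bases before the start codon: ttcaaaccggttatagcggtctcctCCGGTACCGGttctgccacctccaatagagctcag
LEU1, chrVII:478835-478894, minus strand, match 217 to 208 bases before the start codon: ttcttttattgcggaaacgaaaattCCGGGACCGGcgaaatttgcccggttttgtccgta
BAT1, chrVIII:517360-517419, plus strand, match 147 to 138 bases before the start codon: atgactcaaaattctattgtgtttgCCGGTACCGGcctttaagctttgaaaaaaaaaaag

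Genes with a match to the Leu3 letters thus had different values. ILV2 and ILV5 rose by 0.72 and 0.90 on the log2 scale, whereas LEU1 and BAT1 had log2 fold changes of 0.11 and 0.19. ILV2, ILV5 and BAT1 hold the same 10 letters. The Gcn4 letters stood upstream of LEU4, which rose, and of LEU9, which fell, and these stretches are shown for that contrast, again with the match in capitals.
LEU4, chrXIV:426825-426880, minus strand, match 101 to 96 bases before the start codon: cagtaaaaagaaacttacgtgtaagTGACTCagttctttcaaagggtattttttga
LEU9, chrXV:522745-522800, plus strand, match 257 to 252 bases before the start codon: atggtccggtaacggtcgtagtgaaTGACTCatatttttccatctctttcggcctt
ILV6, chrIII:105668-105723, minus strand, match 150 to 145 bases before the start codon: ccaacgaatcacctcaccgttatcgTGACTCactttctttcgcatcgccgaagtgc

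The stretch of ILV6 is added because its rise was close to that of LEU4. ILV5 held 3 matches to the Gcn4 letters, and ILV1, ILV3, LEU1 and BAT1 held 1 each. BAT2, with the steepest fall, held neither set of letters in this window, which says only that these letters are not there.

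The first step of isoleucine synthesis rose. ILV1 (YER086W, chromosome V, 328477 to 330207 in R64, as for all genes below), the threonine deaminase, had 642, 662 and 829.6 CPM in snf2Δ libraries, against 398, 354 and 482 CPM in wild-type libraries. The lowest snf2Δ library lay above the highest wild-type library. Its log2 fold change was 0.79 ± 0.16 (SE, n = 3 each, edgeR adjusted p = 0.0011).

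Both subunits of acetolactate synthase, the first enzyme shared by the isoleucine and valine routes, rose. ILV2 (YMR108W, chromosome XIII, 484084 to 486147), the catalytic subunit, had 867, 1021 and 1202 CPM in snf2Δ libraries, against 597, 555 and 725 CPM in wild-type libraries. The groups were apart, with a log2 fold change of 0.72 ± 0.16 (adjusted p = 0.0027). ILV6 (YCL009C, chromosome III, 104619 to 105548), the regulatory subunit through which valine inhibits the enzyme, had 947, 883 and 1185 CPM in snf2Δ libraries, against 543, 363 and 360.5 CPM in wild-type libraries. Wild-type replicate 1 was the high library of its group, and every snf2Δ library was still above it. ILV6 rose by a log2 fold change of 1.25 ± 0.18 (adjusted p = 6.2e-05).

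Whether the regulatory subunit rose by more than the catalytic subunit was asked with the ratio of their levels per kilobase, which does not depend on how libraries are scaled. ILV6 stood above ILV2 by 1.28, 0.94 and 1.13 log2 units in snf2Δ libraries, against 1.01, 0.54 and 0.14 in wild-type libraries. The groups overlapped, since snf2Δ replicate 2 lay below wild-type replicate 1. The difference of 0.55 log2 units had p = 0.20 (exact two-sided permutation test over 3 libraries against 3, for which 0.10 is the smallest p), so a change in the subunit ratio was not shown at this number of libraries.

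The later enzymes of the shared route also rose. ILV5 (YLR355C, chromosome XII, 838066 to 839253), the reductoisomerase, which is also known as a protein of mitochondrial DNA nucleoids, had 1780.0, 1724 and 1955 CPM in snf2Δ libraries, against 1076, 816 and 1033 CPM in wild-type libraries. Per kilobase it was the most abundant of the 10 genes in every library, and it had a log2 fold change of 0.90 ± 0.16 (adjusted p = 3.6e-04). ILV3 (YJR016C, chromosome X, 464451 to 466208), the iron-sulfur dehydratase that makes the keto acids, had 795, 914 and 1094 CPM in snf2Δ libraries, against 556, 485 and 706 CPM in wild-type libraries. Its groups were apart by the smallest step of the 8 genes that passed on the log scale, and it had a log2 fold change of 0.68 ± 0.17 (adjusted p = 0.0054).

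**Figure D2:**
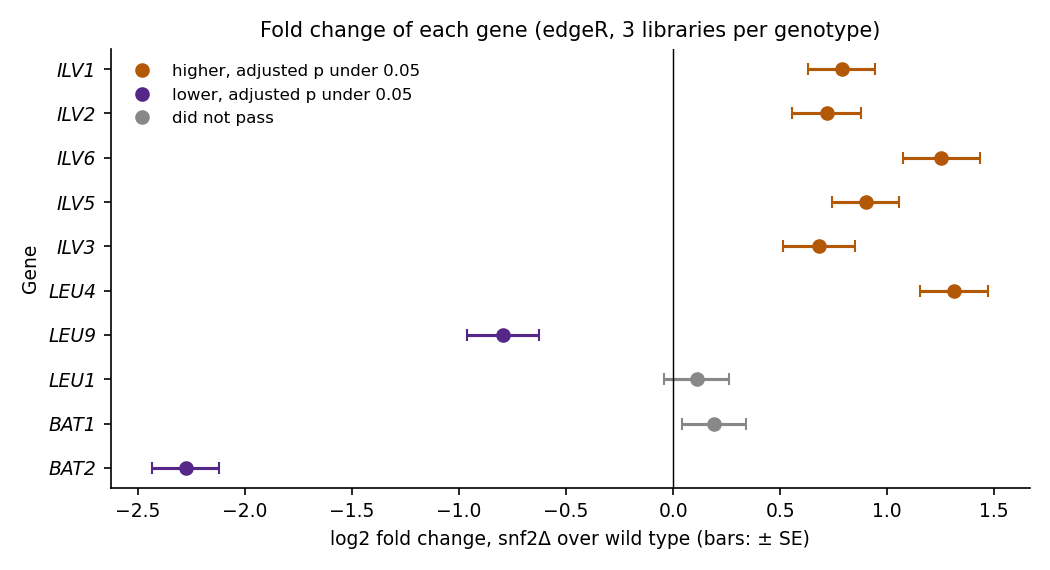
Log2 fold change of snf2Δ over wild type for each of the 10 genes, with its SE (edgeR, 3 libraries per genotype). The 6 genes that rose lie between 0.68 and 1.31, LEU9 lies at −0.80 and BAT2 at −2.28, and LEU1 and BAT1 lie near 0.

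At the entry to the leucine branch the isozymes moved in opposite directions. LEU4 (YNL104C, chromosome XIV, 424895 to 426754), which encodes the main isopropylmalate synthase, had 1052, 1363 and 1455 CPM in snf2Δ libraries, against 512, 472 and 574 CPM in wild-type libraries. All snf2Δ libraries were above all wild-type libraries, and the log2 fold change of 1.31 ± 0.16 (adjusted p = 1.1e-05) was close to that of ILV6. LEU4 had the higher value of the pair with all libraries, whereas ILV6 did without wild-type replicate 1 (1.47 for ILV6 and 1.301 for LEU4) and without snf2Δ replicate 2 (1.34 for ILV6 and 1.27 for LEU4). LEU9 (YOR108W, chromosome XV, 523027 to 524841), which encodes the minor isozyme, had 133, 139 and 181 CPM in snf2Δ libraries, against 236, 223 and 324 CPM in wild-type libraries. Every snf2Δ library was below every wild-type library, and LEU9 fell by 0.80 ± 0.17 on the log2 scale (adjusted p = 0.0018).

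The ratio of LEU4 to LEU9 per kilobase was 7.74, 9.57 and 7.85 in snf2Δ libraries, against 2.11, 2.06 and 1.73 in wild-type libraries. LEU4 was thus the more abundant isozyme transcript in all 6 libraries, by a wider margin in snf2Δ. On the log2 scale the ratio differed by 2.09 (exact two-sided permutation p = 0.10, the smallest that 3 libraries against 3 can give). LEU9 made up 10.7 ± 1.10% of the summed isozyme level per kilobase in snf2Δ and 33.8 ± 2.48% in wild type (SD, n = 3 each). That sum was 777 ± 125 RPKM (CPM per kilobase of gene) in snf2Δ and 423 ± 57.1 RPKM in wild type. Both genes hold the Gcn4 letters shown above.

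The next enzyme of the branch did not pass the test. LEU1 (YGL009C, chromosome VII, 476313 to 478652), the cytosolic iron-sulfur isomerase, had 326, 386 and 477 CPM in snf2Δ libraries, against 339, 356 and 406 CPM in wild-type libraries. The groups overlapped, and the log2 fold change was 0.11 ± 0.15 (adjusted p = 0.62). It was −0.047 without snf2Δ replicate 3, the library with the highest sum of the 10 genes. The ratio of LEU4 to LEU1 per kilobase, a comparison added after the values were seen, was 4.06, 4.45 and 3.83 in snf2Δ libraries, against 1.90, 1.67 and 1.78 in wild-type libraries. The synthase transcript thus moved away from that of the isomerase in all 3 snf2Δ libraries, with a difference of 1.21 log2 units in the ratio (exact two-sided permutation p = 0.10).

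The aminotransferase genes at the end of the pathway differed in their response. BAT2 (YJR148W, chromosome X, 705744 to 706874), the cytosolic enzyme, had 59.9, 72.9 and 52.0 CPM in snf2Δ libraries, against 263, 319 and 315 CPM in wild-type libraries. Its level was thus 4.85-fold lower in snf2Δ, with a log2 fold change of −2.28 ± 0.16 (adjusted p = 2.4e-08), the largest change in either direction among the 10 genes. BAT1 (YHR208W, chromosome VIII, 517532 to 518713), the mitochondrial enzyme, had 545, 583 and 707 CPM in snf2Δ libraries, against 487, 499.9 and 618 CPM in wild-type libraries. The groups overlapped, and the log2 fold change was 0.19 ± 0.15 (adjusted p = 0.35).

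The ratio of BAT1 to BAT2 per kilobase was 8.70, 7.65 and 13.01 in snf2Δ libraries, against 1.77, 1.501 and 1.88 in wild-type libraries. BAT1 was the more abundant transcript throughout, and the ratio was 2.48 log2 units higher in snf2Δ (exact two-sided permutation p = 0.10, the smallest possible). The mitochondrial and cytosolic transcripts were within a factor of 1.88 of each other in every wild-type library. BAT2 made up 9.67 ± 2.28% of the summed aminotransferase level per kilobase in snf2Δ and 36.9 ± 2.71% in wild type (SD, n = 3 each). The sum of the pair was 572 ± 66.1 RPKM in snf2Δ and 717 ± 79.2 RPKM in wild type. Its highest snf2Δ library, at 643.7 RPKM, lay just under its lowest wild-type library, at 644.8 RPKM. Unlike the ratio, the sum depends on how libraries are scaled, and whether this narrow gap holds under other scalings was not tested.

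**Figure D3:**
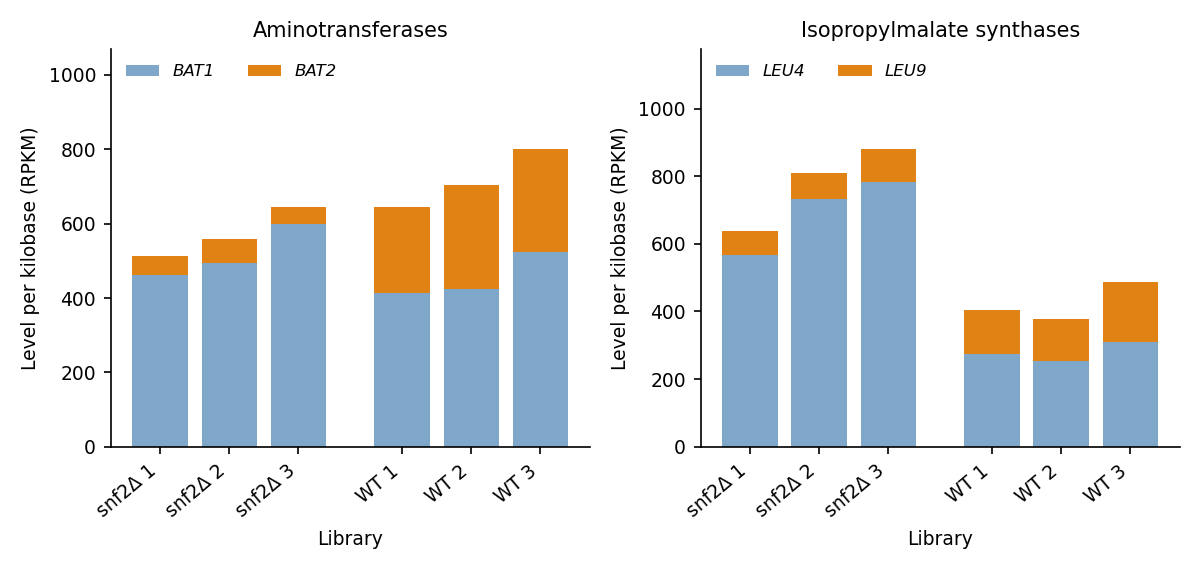
Summed level per kilobase (RPKM) of the aminotransferase genes BAT1 and BAT2 (left) and of the isopropylmalate synthase genes LEU4 and LEU9 (right), with 1 stacked bar for each library, the 3 snf2Δ libraries left of the 3 wild-type libraries. The BAT2 part falls to 7.14 to 11.6% of the bar in snf2Δ, against 34.8 to 39.98% in wild type, and the LEU9 part to 9.46 to 11.4% in snf2Δ, against 32.1 to 36.7% in wild type.

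The isozyme genes are similar in sequence, so their coding frames were compared in the R64 reference. The reads themselves were not examined. The coding frames of BAT1 and BAT2 encode proteins of 393 and 376 residues that are 77.1% identical over the aligned part, and those of LEU4 and LEU9 encode 619 and 604 residues that are 82.9% identical. The longest run of bases shared exactly was 17 for BAT1 and BAT2 and 41 for LEU4 and LEU9. Both runs are shorter than a read of 75 bases, the length given in the study's methods, so no full-length read from the coding frame of 1 gene of a pair matches the other exactly. None of the 10 genes overlapped another gene of the RefSeq annotation, and each had 1 coding exon.

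**Figure D4:**
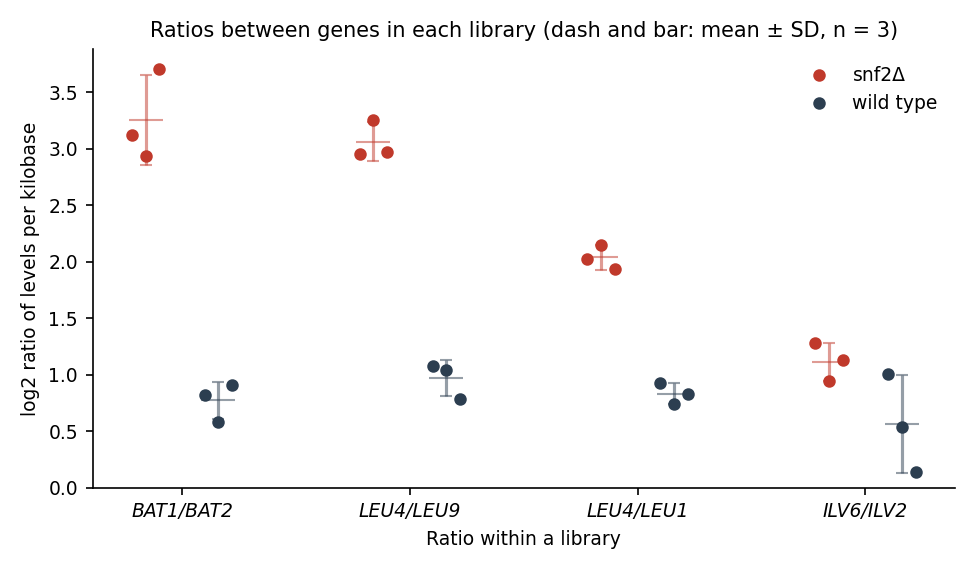
Log2 ratio of levels per kilobase between genes of the pathway in each library (vertical axis), for BAT1 to BAT2, LEU4 to LEU9, LEU4 to LEU1 and ILV6 to ILV2, with snf2Δ (red) left of wild type (dark). Points are libraries and dashes with bars are mean ± SD (n = 3), and the genotypes are apart for all of the ratios except ILV6 to ILV2.

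Compared per kilobase, ILV5 and ILV6 held the first places in both genotypes, and the order differed from the third place down. In snf2Δ the order of mean levels was ILV5 (1532 ± 101 RPKM), ILV6 (1081 ± 171), LEU4 (694 ± 113), ILV3, BAT1, ILV2, ILV1 (411 ± 59.6), LEU1 (169 ± 32.6), LEU9 (83.1 ± 14.4) and BAT2 (54.4 ± 9.35; SD, n = 3). From LEU4 to ILV1 each gene overlapped the next in the order, whereas the steps at either end of the order were apart. In wild type the order was ILV5 (821 ± 117 RPKM), ILV6 (454 ± 112), BAT1 (453 ± 61.2), ILV3, ILV2, LEU4 (279 ± 27.5), BAT2 (264 ± 27.5), ILV1, LEU1 (157 ± 14.9) and LEU9 (144 ± 30.2). Apart from the steps from ILV5 to ILV6, from BAT1 to ILV3 and from ILV1 to LEU1, neighbours in the wild-type order overlapped. BAT2 was seventh in wild type, where its range overlapped that of LEU4, and last in snf2Δ.

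Of 5 regulators of amino acid synthesis and nitrogen use 2 rose and 0 fell, beside 16.6% and 17.8% of all features tested. GCN4 had 2631 ± 90.4 CPM in snf2Δ and 1773 ± 226 CPM in wild type (SD, n = 3 each), a log2 fold change of 0.57 ± 0.16 (adjusted p = 0.011). Gcn4 is controlled mainly at translation, so its transcript level is not its activity. PUT3, a regulator of proline use, rose by 0.47 ± 0.15 (adjusted p = 0.023). LEU3 itself had 84.3 ± 9.08 CPM in snf2Δ and 82.1 ± 2.87 CPM in wild type (log2 fold change 0.036, adjusted p = 0.87). GCN2, the kinase that senses uncharged tRNA, and GLN3, a nitrogen regulator, had log2 fold changes of 0.20 and 0.21 and did not pass.

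The neighbouring steps of the pathway did not pass the test in either direction (0 of 4), where 16.6% of all features tested rose and 17.8% fell. LEU2, the dehydrogenase after Leu1, had 70.9 ± 13.6 CPM in snf2Δ and 69.3 ± 10.5 CPM in wild type. Its reads may come from the marker at FPR1 as well as from its own locus, and these cannot be told apart. OAC1, the carrier that exports isopropylmalate from mitochondria, had 96.0 ± 3.29 CPM in snf2Δ and 91.7 ± 15.2 CPM in wild type. MMF1, a mitochondrial protein needed for isoleucine synthesis, had a log2 fold change of 0.31 (adjusted p = 0.074) and ECM31, which draws on the keto acid of valine for pantothenate, of −0.23 (adjusted p = 0.30).

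Of 6 genes that supply or use threonine, the substrate of Ilv1, 5 rose and 0 fell, and of the 5 suppliers among them 4 rose. The shares over all features tested were 16.6% for rises and 17.8% for falls. HOM2 and HOM3, the early enzymes of the aspartate route, rose by 1.46 ± 0.15 and 1.34 ± 0.16. THR1, the homoserine kinase, rose by 0.72 ± 0.15 and HOM6, the homoserine dehydrogenase, by 0.58 ± 0.18, although the libraries of HOM6 overlapped between the genotypes. CHA1, a deaminase that breaks down serine and threonine, also rose, by 0.64 ± 0.13, and is the user of threonine in this list. THR4, the threonine synthase, had a log2 fold change of 0.39 (adjusted p = 0.069). HOM2, HOM3 and HOM6 lead to homoserine, which methionine synthesis also draws on, so their rises are not particular to threonine. Past homoserine, THR1 rose and THR4 did not pass.

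Permease genes for branched-chain amino acids fell in 4 of 6 cases and rose in 1, beside 17.8% and 16.6% of all features tested. BAP2, a permease for leucine, isoleucine and valine, had 189.7 ± 15.99 CPM in snf2Δ and 699.6 ± 110 CPM in wild type (SD, n = 3 each), a log2 fold change of −1.88 ± 0.15 (adjusted p = 1.5e-07). Its upstream window holds both the Leu3 and the Gcn4 letters. The broad permease gene AGP1 fell by 2.13 ± 0.14, TAT1 fell by 2.04 ± 0.18 and the general permease gene GAP1 fell by 0.55 ± 0.15 on the log2 scale. The window of AGP1 holds the Gcn4 letters only, and those of TAT1, GAP1, BAP3 and GNP1 hold neither set. BAP3, the relative of BAP2, had 333 ± 86.5 CPM in snf2Δ and 372 ± 51.3 CPM in wild type and did not pass (adjusted p = 0.51), whereas GNP1, a glutamine permease gene, rose by 0.66 ± 0.17. Of 6 genes that sense external amino acids or activate these permease genes, 1 fell (DAL81, by 0.63 ± 0.15) and 0 rose. That is near the share of falls over all features tested. SSY1, PTR3, SSY5, STP1 and STP2 did not pass.

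Of 8 genes that turn the keto acids into fusel alcohols and esters, 2 fell and 1 rose, shares near the 17.8% and 16.6% of all features tested. ARO10, a decarboxylase of the keto acids, had 13.8 ± 3.22 CPM in snf2Δ and 60.3 ± 4.44 CPM in wild type, and fell by 2.12 ± 0.19 on the log2 scale. ATF2, an alcohol acetyltransferase, had 12.2 ± 0.599 CPM in snf2Δ and 69.5 ± 13.5 CPM in wild type, and fell by 2.51 ± 0.20. PDC5, a minor pyruvate decarboxylase, rose by 0.63 ± 0.17. The log2 fold changes of THI3, PDC1, PDC6, SFA1 and ATF1 were between −0.40 and 0.081 and did not pass.

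**Figure D5:**
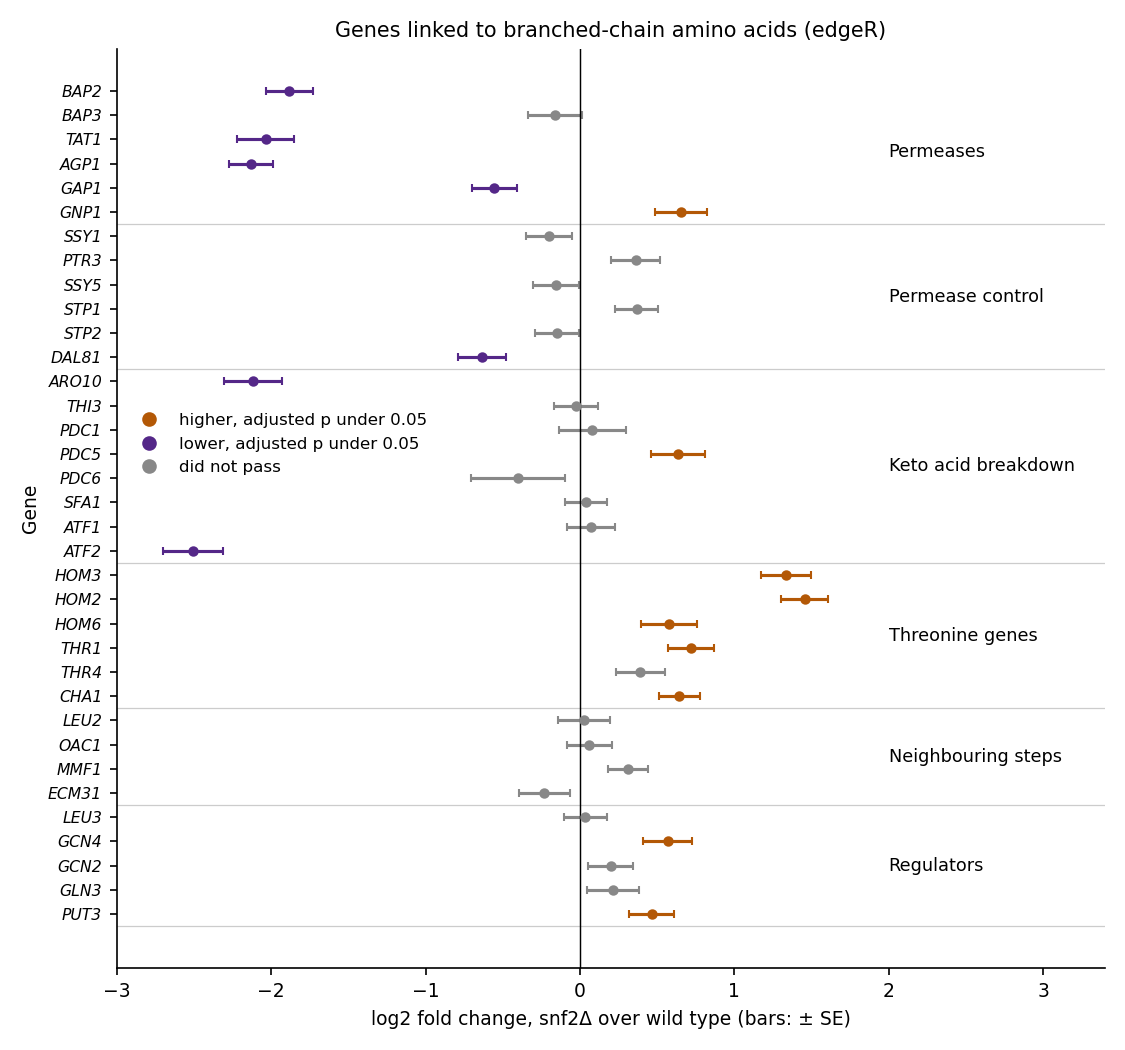
Log2 fold change of snf2Δ over wild type, with its SE, for 35 genes linked to the pathway, grouped as permeases, control of permeases, keto acid breakdown, threonine genes, neighbouring steps and regulators. The threonine genes lie between 0.39 and 1.46, while AGP1, TAT1 and BAP2 among permeases and ARO10 and ATF2 among breakdown genes lie at −1.88 or lower.

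Among the pathways compared, the genes of branched-chain amino acids lay between lysine and arginine synthesis in median log2 fold change. Of 7 lysine genes 3 rose and 0 fell, with a median log2 fold change of 0.24. Of 9 arginine genes 9 rose, with a median of 2.55, and the lowest of them (1.17) lay under the rises of ILV6 and LEU4. Neither of those pathways held a gene that fell, whereas 2 of the 10 genes described here (LEU9 and BAT2) did. The lysine and arginine lists hold synthesis genes only, whereas the 10 genes include BAT2, which is linked to breakdown. Rises made up 16.6% of all features tested and falls 17.8%. The 2 falls among 10 genes are thus near the share over all features. No difference between the pathways was tested.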

How the data were processed

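Poly(A) RNA was sequenced from 6 samples, 3 snf2Δ and 3 wild type, grouped by GEO's labels. The labels name hot phenol extraction and the study's methods a column kit for sequenced samples, so which was used is unclear. The submitters' processing notes list bcl2fastq 2.18, STAR 2.7.3a, RSEM 1.3.0 and the build sacCer3, with Ensembl 98 annotation per the study's methods. The values the authors deposited are unnormalized read counts, whole in every cell, for each feature and library. No source used here states whether counting used strand. Totals were 4134546 to 6708036 counts. At these totals a gene at 0 can be as high as 3 counts in a library.

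In R 4.3.3, edgeR 4.0.16 was run on the whole table: filterByExpr, TMM scaling, and the quasi-likelihood F test with bias-adjusted deviances and genotype as the only term, adjusted by Benjamini-Hochberg over the 5641 features kept without SNF2. SEs were taken from the fold change and F (log2 fold change over root F). The procedure was tested on simulated data. Ratios between genes were compared by exact permutation tests (scipy 1.17.1). RPKM used gene lengths of RefSeq's R64 assembly, on which sacCer3 is based and in which 6047 of 7127 features were found. Close copies were searched with BLAST 2.17.0.

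The 10 genes and the lists of linked genes were chosen with earlier results of these data known. The rule for named genes took the 10 genes, SNF2, FPR1, LEU2, the regulators, OAC1, BAP2, BAP3 and any linked gene with an adjusted p under 0.05. Arginine and lysine genes are given as counts. Other linked genes that are named, and the ratio of LEU4 to LEU1, were chosen after their values were seen. Alternatives were 3 other scalings (DESeq2 size factors, upper quartile, total counts), no filter, a filter that kept features at 10 CPM in 3 libraries or more, DESeq2 1.42.0 (Wald test), limma-voom (limma 3.58.1), the replicate number as a block and each library left out. The older quasi-likelihood fit was added after seeing the data. For the ratios they were 0.5 added to each count, medians, the replicate pairs and each library left out.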

Additional observations from a re-analysis of the deposited data

How the results depend on the processing

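The calls of all 10 genes held under every alternative run: 6 rose and 2 fell in each, with or without the replicate block. The highest adjusted p of a gene that passed was 0.041, for ILV3. The ranges over all alternatives were −2.42 to −2.17 for the log2 fold change of BAT2, −0.95 to −0.61 for LEU9, 1.22 to 1.45 for LEU4, 1.12 to 1.47 for ILV6 and 0.073 to 0.31 for BAT1. The only change of sign was that of LEU1, which did not pass and lay at −0.047 without snf2Δ replicate 3 (−0.047 to 0.24 with single libraries left out). With single libraries left out, the difference in log2 ratio was 2.26 to 2.64 for BAT1 to BAT2, 1.99 to 2.14 for LEU4 to LEU9, 1.15 to 1.26 for LEU4 to LEU1 and 0.34 to 0.78 for ILV6 to ILV2. Over all features, 939 rose and 1003 fell, against 1204 and 808 with upper quartile scaling, which raised the median log2 fold change by 0.086. Leaving out single libraries gave 685 to 1184 rises and 730 to 1311 falls. Same-numbered samples correlated at 0.15, −0.040 and 0.13 in their deviations from the group means, and differently numbered samples at −0.20 to 0.13. With 3 libraries a genotype these values cannot settle whether samples were paired. The labels do not say that they were, so the numbers were not taken as pairs. With the replicate block 986 features rose and 1072 fell, and each ratio had p = 0.25 in an exact sign-flip test, the smallest that 3 pairs allow. With 3 libraries a genotype, changes as small as those of LEU1 and BAT1 cannot be told from no change.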

Other observations

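The Leu3 letters CCGGNNCCGG occurred upstream of 16 genes in the whole genome, all of which were tested. They include BAP2 and LEU2 besides ILV2, ILV5, LEU1 and BAT1. Of the 16 genes, 3 rose (ILV2, ILV5 and ATP5) and 5 fell (BAP2, BRO1, NPL3, GDH1 and GAT1), which are 18.8% and 31.2%, and the median log2 fold change was 0.042. GDH1, a glutamate dehydrogenase that supplies the amino group used by the aminotransferases, fell by 0.55 ± 0.13 on the log2 scale (edgeR adjusted p = 0.0049), and GAT1, a nitrogen regulator, fell by 0.46 ± 0.14 (adjusted p = 0.018). The Gcn4 letters TGACTC occurred upstream of 719 genes that were tested, of which 25.6% rose and 13.5% fell. Of all 5499 genes tested with a complete window, 918 rose (16.7%) and 990 fell. These shares are descriptions and were not tested. ATP5, BRO1, NPL3, GDH1 and GAT1 are named for the match, after their values were known.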
